A study of Mus musculus with 17 samples.

Results

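Expression of 10 genes of the contractile apparatus of striated muscle was followed in the cerebral cortex of Hnrnph2-mutant mice: Myh7, Tnnc1, Igfn1, Tnnt1, Tnni1, Myl2, Myl3, Acta1, Actc1 and Ckm, 10 of the 55453 gene symbols in the expression table. They were taken by symbol, and the group was chosen by the measured levels of Myh7, Tnnc1 and Igfn1, which were lower in P209L mice than in their controls in these same samples. Values of that contrast are therefore given as a description, without a test, while the other lines and the spread between mice were tested. In P209L cortex, Myh7 stood at 35.7% of its control mean, Igfn1 at 41.6%, Tnnc1 at 42.4% and Tnni1 at 43.1%, and every P209L mouse lay below both controls for each of them. Tnnt1 and Acta1 were lower by smaller amounts, Myl2 was not lower, and Myl3, Actc1 and Ckm were hardly detected in any mouse. No member passed the test in KO or R206W cortex.

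Bulk cortex was collected from hemizygous male C57BL/6J mice with a knockout (KO), an R206W or a P209L allele of Hnrnph2, an X-linked gene whose product binds RNA, and from wild-type littermates of each line. KO and R206W mice and their controls were 8 weeks old, and P209L mice and their controls were 3 weeks old, so that line and age cannot be told apart when P209L animals are set beside the others. The 6 groups held 17 mice, with 2 P209L controls analysed here and 3 mice in every other group. The study describes R206W and P209L as knockins of human substitutions, and its KO line as a frameshift obtained while they were made. Hnrnph2 was at 21.3 to 24.4 TPM (transcripts per 1000000, a share of the RNA corrected for transcript length) in KO mice against 80.5 to 145 in their controls, and at 81.6 to 160 in the remaining groups, so the targeted gene went with the labels. Values were deposited as TPM, so sequencing depth is unknown and precision was judged from the spread between mice alone.

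In striated muscle, thick filaments of myosin slide along thin filaments of actin, and the troponin complex on the thin filament switches contraction on when calcium binds to it. Most of these proteins exist as slow, fast and cardiac isoforms encoded by separate genes, and the slow skeletal isoforms are often shared with the heart. Brain cells use related non-muscle myosins, actins and tropomyosins in their cytoskeleton, whereas most sarcomeric isoforms are known from muscle.

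The sequences just before the transcription starts are shown for 6 members, because they let the genes that were low in P209L (Myh7, Tnnc1, Igfn1 and Tnni1) be read beside a pair of close actin paralogs, of which Acta1 was detected in cortex and Actc1 was not. Each is the 250 bases before the most upstream start that RefSeq lists for the gene (GRCm38.p6), read 5′ to 3′ on the gene's strand, at chr14:54994627-54994876, minus strand for Myh7, chr14:31208062-31208311, plus strand for Tnnc1, chr1:136006343-136006592, minus strand for Igfn1, chr1:135799171-135799420, plus strand for Tnni1, chr8:123894776-123895025, minus strand for Acta1 and chr2:114052876-114053125, minus strand for Actc1. Cortex may use another start. Capitals mark matches to motifs named for muscle regulators, searched on both strands: the E-box (CANNTG), the MCAT motif (CATTCC or GGAATG), the MEF2 motif and the CArG box.
Myh7: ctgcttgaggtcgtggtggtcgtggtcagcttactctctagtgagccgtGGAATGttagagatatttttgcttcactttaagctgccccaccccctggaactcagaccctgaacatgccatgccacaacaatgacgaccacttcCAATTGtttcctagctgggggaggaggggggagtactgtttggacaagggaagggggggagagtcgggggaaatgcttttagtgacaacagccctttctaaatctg
Tnnc1: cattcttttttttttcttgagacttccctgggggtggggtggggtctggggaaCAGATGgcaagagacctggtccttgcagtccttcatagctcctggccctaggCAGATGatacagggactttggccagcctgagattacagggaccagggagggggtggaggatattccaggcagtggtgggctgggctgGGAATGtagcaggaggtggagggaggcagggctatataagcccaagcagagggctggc
Igfn1: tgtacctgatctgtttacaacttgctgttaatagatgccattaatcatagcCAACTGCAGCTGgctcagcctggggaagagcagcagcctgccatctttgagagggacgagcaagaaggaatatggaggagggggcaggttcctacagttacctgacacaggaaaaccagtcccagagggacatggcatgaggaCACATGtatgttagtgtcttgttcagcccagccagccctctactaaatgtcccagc
Tnni1: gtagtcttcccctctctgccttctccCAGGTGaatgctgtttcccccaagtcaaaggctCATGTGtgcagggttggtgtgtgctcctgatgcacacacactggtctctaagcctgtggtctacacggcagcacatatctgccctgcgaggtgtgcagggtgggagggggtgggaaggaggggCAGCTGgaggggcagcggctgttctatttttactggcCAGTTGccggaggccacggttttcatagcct
Acta1: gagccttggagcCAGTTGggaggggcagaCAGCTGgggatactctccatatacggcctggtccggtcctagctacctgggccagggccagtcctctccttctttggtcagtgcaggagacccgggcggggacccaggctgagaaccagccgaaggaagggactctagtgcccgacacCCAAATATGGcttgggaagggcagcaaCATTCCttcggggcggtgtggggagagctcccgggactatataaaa
Actc1: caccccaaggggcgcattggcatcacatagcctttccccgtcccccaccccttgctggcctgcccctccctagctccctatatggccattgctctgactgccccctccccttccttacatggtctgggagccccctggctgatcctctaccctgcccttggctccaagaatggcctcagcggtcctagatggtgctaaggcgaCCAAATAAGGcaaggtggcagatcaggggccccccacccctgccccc

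E-boxes, which bind basic helix-loop-helix factors, were found before 9 of the 10 members and before 66.2% of 32851 promoters of the same length. MCAT, the motif bound by TEAD factors, was found before 4 of the 10 members (Myh7, Tnnc1, Myl3 and Acta1) against 12.6% of all promoters. The CArG box, bound by serum response factor, was found before 3 members (Myl3, Acta1 and Actc1) against 1.47% of all promoters. MEF2 motifs were found before 0 of the 10 members and before 2.92% of all promoters. No matches overlapped each other in these 10 windows, although 2 of the E-boxes of Igfn1 adjoin. Among the 4 genes with the lowest P209L values, MCAT was thus present before Myh7 and Tnnc1 and absent from the windows of Igfn1 and Tnni1, and the CArG box was in none of the 4. A match describes the letters and says nothing of binding in cortex.

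**Figure D1:**
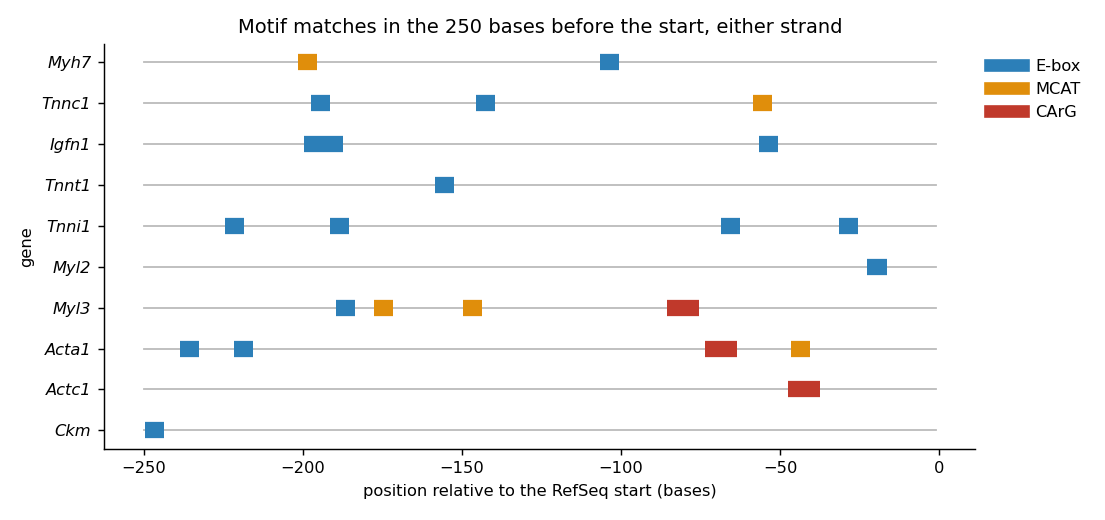
Positions of motif matches in the 250 bases before the RefSeq start of each of the 10 genes, in bases from the start, with E-box, MCAT and CArG matches as coloured blocks and each gene on its own line. Myl3, Acta1 and Actc1 carry a CArG match, and 9 of the 10 genes carry an E-box.

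Of the 10 members, 7 reached a mean of 1 TPM over the 17 mice and entered the test (16265 genes did so in all): Myh7, Tnnc1, Igfn1, Tnnt1, Tnni1, Acta1 and Myl2. Myl2 averaged 1.05 TPM over the 17 mice and 0.985 TPM over the 14 that were not P209L, so it passed only through the P209L mice. It is counted among the 7 tested members below with that limit. Actc1, the cardiac actin, was listed at 0 in 15 of the 17 mice and reached at most 0.03 TPM. Ckm, the muscle creatine kinase that buffers ATP, lay between 0 and 0.14 TPM. Myl3, the slow and ventricular essential light chain of myosin, lay between 0 and 0.25 TPM. These 3 genes were under the filter and were not tested. Ckm was at 0.03 TPM in each P209L mouse and at 0.08 and 0.05 TPM in their controls, levels too low to be read.

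The slow and fast forms of the same subunit were not present to the same degree. On the TPM scale, which allows levels of different genes to be compared per length, the slow and cardiac myosin heavy chain Myh7 averaged 15.5 over all mice, against 0.198 for Myh1, 0.287 for Myh2 and 0.148 for Myh4, the adult fast heavy chains. Slow troponin C (Tnnc1) averaged 34.0 TPM and fast troponin C (Tnnc2) 0.494 TPM. Slow troponin I (Tnni1) averaged 4.17 TPM and its fast form Tnni2 0.630 TPM, and slow troponin T (Tnnt1) averaged 4.44 TPM and its fast form Tnnt3 0.165 TPM. For heavy chain and all 3 troponin subunits, the lowest mouse for the slow gene was above the highest mouse for the fast gene. The light chains did not follow this order: fast Myl1 averaged 1.22 TPM against 0.0894 TPM for Myl3, and fast Mylpf averaged 2.00 TPM against 1.05 TPM for Myl2. The comparison of slow with fast forms was added after the values were seen.

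**Figure D2:**
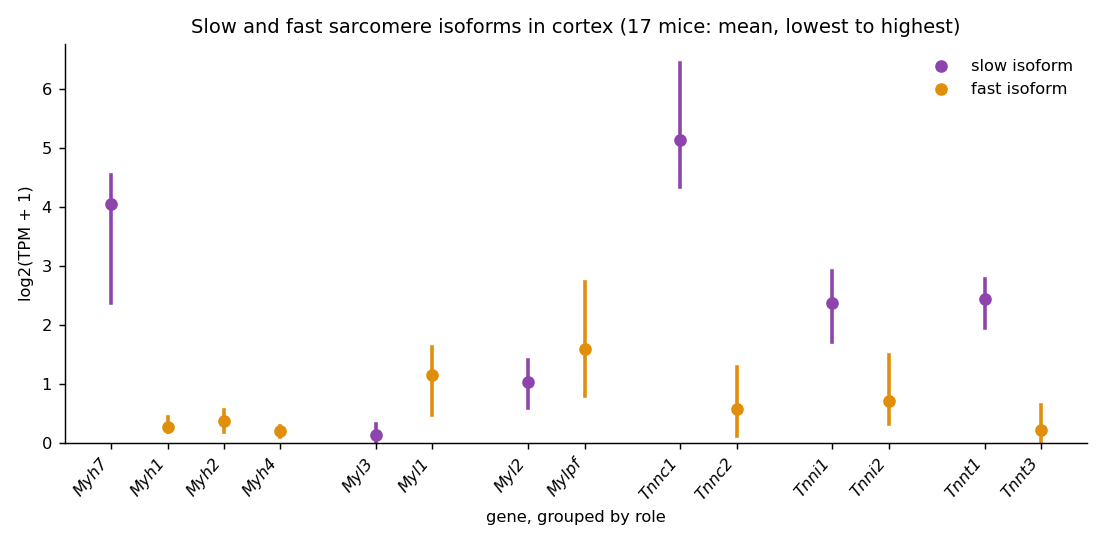
Level of slow (purple) and fast (orange) isoforms of each sarcomere subunit over the 17 mice, as log2(TPM + 1), where the point is the level at the mean TPM and the line runs from the lowest to the highest mouse. The slow form lies above the fast form for the myosin heavy chain and the troponins C, I and T, and below it for both light chains.

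Other genes of a muscle fibre were unevenly detected, some hardly at all and others at high levels. Titin (Ttn), the giant spring protein of the sarcomere, averaged 0.0688 TPM, and myoglobin (Mb), the oxygen store of muscle, 0.226 TPM. Myod1 and Myog, which commit cells to the muscle lineage, lay between 0 and 0.27 TPM and between 0 and 0.36 TPM. Of lists of genes by role, 12 of 21 thick filament genes, 9 of 20 thin filament genes, 10 of 16 titin and Z-disc genes, 8 of 18 genes of muscle energy and calcium handling and 6 of 8 myogenic regulators stayed under a mean of 1 TPM. Genes of these lists that were abundant include ones also known from neurons and other cells. Tropomyosins Tpm1 and Tpm3 averaged 152 and 129 TPM, the calcium pump gene Atp2a2 290 TPM, the transcription factor gene Mef2c 324 TPM and the atrial and fetal light chain gene Myl4 54.2 TPM. Further genes of the lists were also well detected: Nebl averaged 31.9 TPM, Tmod1 29.5, Pygm 20.6, Cox6a2 19.6, Tcap 16.2 and Eno3 13.4 TPM. Nebl, Tmod1, Cox6a2 and Eno3 were singled out after their values were seen.

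Myh7, the motor subunit of slow thick filaments, was at 18.6 and 22.2 TPM in the 2 P209L controls and at 8.66, 9.03 and 4.15 TPM in the 3 P209L mice. The groups did not overlap, and P209L mouse 3 was the lowest of all 17. Its log2 difference was -1.43 ± 0.225 (SE from the limma model on log2(TPM + 1)), with means of 7.28 ± 2.72 (SD, n = 3) and 20.4 ± 2.57 TPM (SD, n = 2), a 2.80-fold difference of means. Leaving out 1 mouse of the line at a time gave log2 differences of -1.59 to -1.11. At 8 weeks Myh7 was at 18.4, 18.1 and 18.3 TPM in KO controls and at 15.5, 15.8 and 21.4 TPM in KO mice, which straddled them. It was at 15.0, 16.8 and 16.6 TPM in R206W controls and at 13.2, 16.5 and 16.0 TPM in R206W mice, which overlapped. In order of group means, Myh7 ran from P209L controls through KO controls, KO, R206W controls and R206W to P209L, and only the first and the last step lay between groups that did not overlap.

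Myh7 (ENSMUSG00000053093.16) spans chr14:54970684-54994626 on the minus strand (GENCODE M21, GRCm38). Its antisense transcripts Mhrt and Gm31251 were at most at 0.17 TPM in any mouse. Myh6, the alpha cardiac heavy chain and a close copy of Myh7, was at 0.14 to 0.38 TPM in P209L mice and 0.64 to 0.81 TPM in their controls. It was below the filter and not tested, and reads of such similar genes may have been split between them.

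Tnnc1, the calcium-binding troponin subunit of slow muscle and heart, was at 85.5 and 74.6 TPM in P209L controls and at 34.1, 26.9 and 40.8 TPM in P209L mice. The log2 difference was -1.23 ± 0.207 (SE), and it ran from -1.37 to -1.08 with 1 mouse left out. The 3-week controls were high rather than the P209L mice low when set beside the 8-week lines: KO controls held 22.9, 27.3 and 29.1 TPM, and R206W controls 35.1, 27.0 and 19.2 TPM. KO mice were at 25.7, 20.8 and 23.3 TPM and R206W mice at 29.9, 26.6 and 29.8 TPM. The P209L mice overlapped KO controls, R206W controls and R206W mice, and lay above all 3 KO mice. In order of group means, P209L controls alone stood apart from the next group, P209L, and each later step was between overlapping groups.

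The 3-week controls held 2.99 times the Tnnc1 level of the mean 8-week control, a log2 difference of 1.57 ± 0.185 (SE). It is a description, because these controls entered the contrast that chose the gene and because the P209L line and the age of 3 weeks are the same split. For the other 6 detected members this difference was smaller: 0.50 for Tnni1, 0.33 for Myl2, 0.27 for Igfn1, 0.23 for Myh7, 0.089 for Tnnt1 and 0.022 for Acta1. The median over all genes tested was -0.12 in this comparison, and rescaling by size factors moved that median to 0.00081. Only for Tnnc1 was the difference above 1 on the log2 scale.

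Tnnc1 (ENSMUSG00000091898.8, chr14:31208312-31211729, plus strand) lies wholly within Nisch, a gene on the opposite strand. Nisch was at 180 to 233 TPM in P209L mice and 201 to 216 TPM in their controls, which overlap. The library kit keeps strand, but whether the quantification used it is not given in the sources used here, so that reads from the pair may not be separable.

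Igfn1, which encodes an immunoglobulin and fibronectin domain protein of the Z-disc, was at 18.2 and 20.4 TPM in P209L controls and at 8.33, 6.78 and 8.95 TPM in P209L mice. The log2 difference was -1.17 ± 0.205 (SE), and -1.25 to -1.07 with 1 mouse left out. The P209L mice were below every mouse of the other 5 groups, in which the lowest value was 11.54 TPM. KO controls held 11.8, 15.5 and 19.5 TPM and KO mice 18.8, 17.2 and 26.3 TPM, which overlapped. R206W controls held 18.2, 14.9 and 16.1 TPM and R206W mice 11.99, 11.54 and 15.95 TPM, which also overlapped. Among ordered group means only the last step, from R206W (13.2 TPM) to P209L (8.02 TPM), was between groups that did not overlap.

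**Figure D3:**
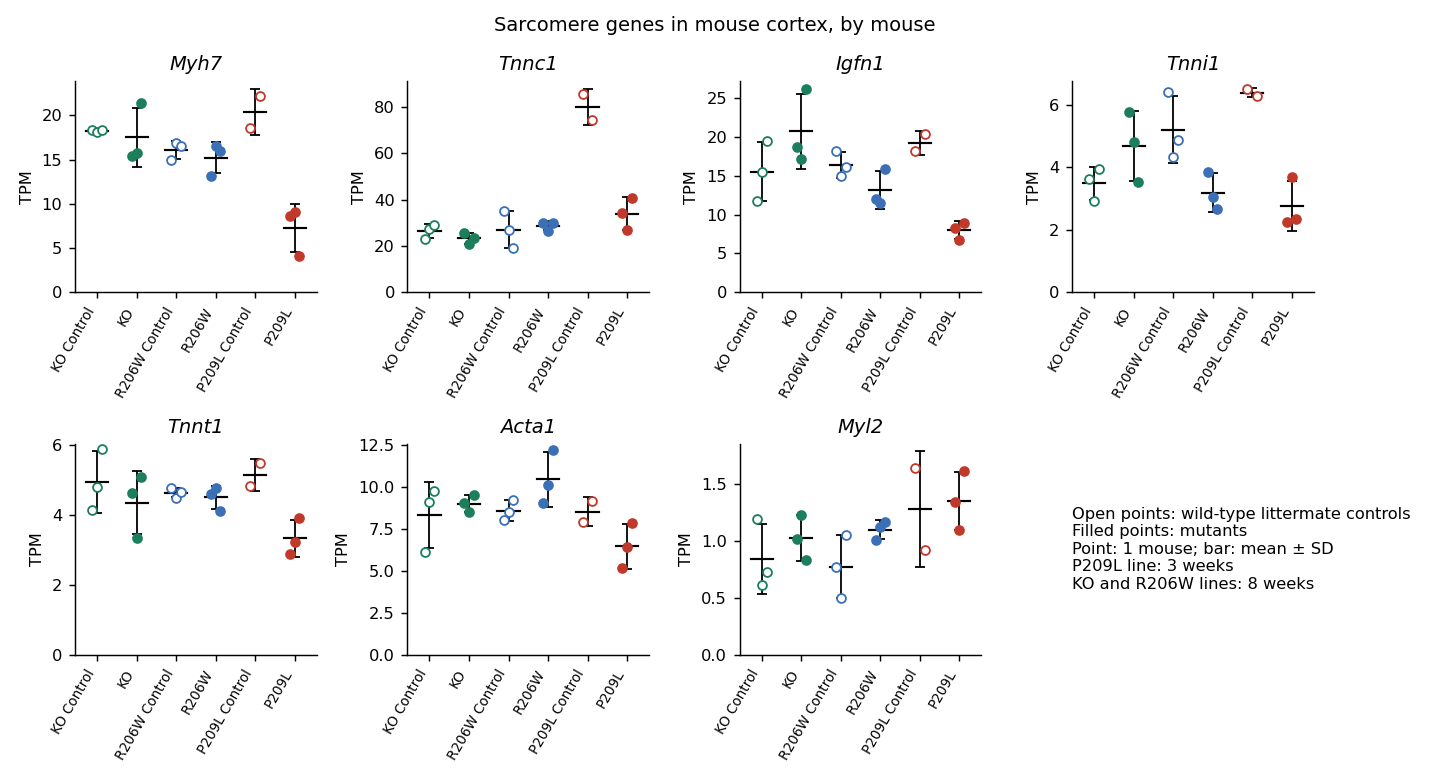
TPM of the 7 detected members in each of the 17 mice, with open points for controls, filled points for mutants, and the group mean ± SD in black. P209L mice lie below both of their controls in each panel except that of Myl2, and the P209L controls are far above all other groups for Tnnc1 alone.

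Tnni1, the inhibitory troponin subunit of slow muscle, was not among the genes that chose the group, although it had nearly as large a difference. It was at 6.50 and 6.30 TPM in P209L controls and at 2.25, 3.68 and 2.35 TPM in P209L mice, with a log2 difference of -0.997 ± 0.205 (SE). Igfn1 at -1.17 was thus the last of the selecting genes and Tnni1 the next outside them. Tnni1 (ENSMUSG00000026418.16) spans chr1:135779434-135810989 on the plus strand, and Igfn1 (ENSMUSG00000051985.12) spans chr1:135953578-136006342 on the minus strand. The 142588 bases between them hold 5 annotated genes.

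Tnnt1, which anchors the slow troponin complex to tropomyosin, was at 4.81 and 5.46 TPM in P209L controls and at 2.87, 3.22 and 3.90 TPM in P209L mice. Its log2 difference was -0.51 ± 0.160 (SE), and of the other groups P209L overlapped KO alone, which had a lowest value of 3.33 TPM. Acta1, the skeletal muscle alpha-actin, was at 7.92 and 9.14 TPM in P209L controls and at 5.16, 6.43 and 7.82 TPM in P209L mice. Its log2 difference was -0.36 ± 0.181 (SE), and the highest P209L mouse was barely below the lowest control. Acta1 lies inside Gm20388 on the opposite strand (7.01 to 19.0 TPM over all mice), and reads of near-identical actin genes may be assigned to either.

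Myl2, the slow and ventricular regulatory light chain, went another way: it was at 1.64 and 0.92 TPM in P209L controls and at 1.34, 1.10 and 1.61 TPM in P209L mice. The log2 difference was 0.056 ± 0.189 (SE), and it ran from -0.17 to 0.29 with 1 mouse left out. At this low level it gave no direction.

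Of the 7 tested members, 6 (all but Myl2) had each P209L mouse below both controls, and 10.7% of all genes tested did so. The count follows in part from how the group was chosen, and nothing is read from it. Over all genes tested, 0.0984% passed an adjusted p of 0.05 in this contrast (limma with Benjamini-Hochberg adjustment), and no test is given for the members, whose choice used it. The summed level of the 10 members was 57.4 to 69.8 TPM in P209L mice and 139 to 143 TPM in their controls. Tnnc1, a selecting gene, alone made up 85.5 and 74.6 TPM of the control sums, so the sums largely follow it. The sums of the 8-week groups stayed below the P209L controls, and KO controls alone overlapped the P209L mice, at 68.2 to 87.4 TPM in KO controls, 71.8 to 90.2 TPM in KO mice, 71.8 to 88.2 TPM in R206W controls and 73.6 to 82.2 TPM in R206W mice. Averaged over the 10 members on the log2(TPM + 1) scale, P209L mice were lower by a difference of -0.57, and 3-week controls differed from 8-week controls by 0.31. In bulk tissue, fewer cells of a type and less RNA per cell cannot be told apart.

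In KO cortex, 0 of the 7 tested members passed an adjusted p of 0.05 (limma), where 0.00615% of all genes did, and 0 of 7 had groups that did not overlap, against 6.25% of all genes. At an unadjusted p under 0.05, 1 of 7 members (Igfn1) and 663 of the 16265 genes were counted. Igfn1 had a log2 difference of 0.40 ± 0.184 (SE), a 95% interval of 0.0072 to 0.79 and an adjusted p of 0.999 (limma), and it was higher than the KO control mean in 3 of 3 KO mice. The adjusted p ranged from 0.529 to 1 over the alternatives. With 1 mouse left out, the difference of Igfn1 ran from 0.22 to 0.56. The median over all genes tested was 0.064 in this comparison. Tnni1 had a difference of 0.33, with an interval from -0.059 to 0.72. For Myh7 the interval was -0.50 to 0.36 and for Tnnc1 -0.57 to 0.22. The remaining differences were -0.16 for Tnnt1, 0.12 for Acta1 and 0.14 for Myl2.

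In R206W cortex, 0 of the 7 tested members passed an adjusted p of 0.05, where 0.0369% of all genes did. Tnni1 was the 1 member of 7 whose groups did not overlap, against 16.2% of all genes, and the 1 member with an unadjusted p under 0.05, as 357 of all genes had. It was at 6.41, 4.33 and 4.88 TPM in R206W controls and at 3.87, 3.05 and 2.66 TPM in R206W mice. Its log2 difference was -0.56 ± 0.183 (SE), with a 95% interval of -0.95 to -0.17, an unadjusted p of 0.00754 and an adjusted p of 1 (limma), which ranged from 0.430 to 1 over the alternatives. All 3 R206W mice were lower than all 3 controls, but the controls of this line were also higher than the KO controls (3.62, 2.92 and 3.94 TPM), which overlapped the R206W mice. Igfn1 had a difference of -0.31, with an interval from -0.70 to 0.082. Myh7, at -0.081, had an interval from -0.51 to 0.35, and Tnnc1, at 0.12, one from -0.27 to 0.51.

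**Figure D4:**
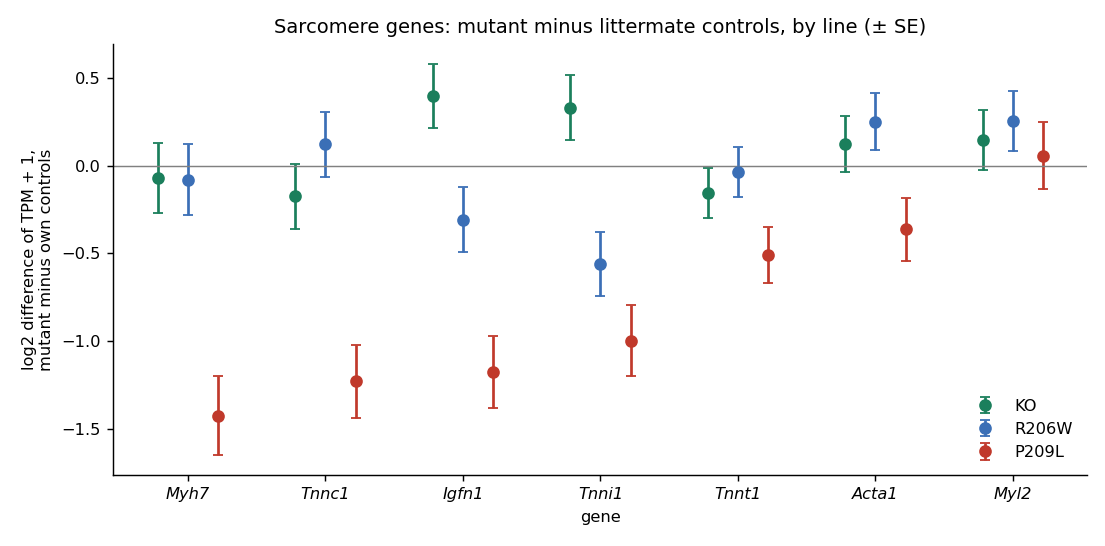
Log2 difference of TPM + 1 between mutants and their own controls for the 7 detected members in the KO, R206W and P209L lines, with bars of ± 1 SE from the limma model. Myh7, Tnnc1, Igfn1 and Tnni1 lie between -1.43 and -0.997 in P209L, while the KO and R206W points lie between -0.56 and 0.40.

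The KO and R206W effects were compared directly, since both lines were 8 weeks old. No member passed an adjusted p of 0.05 for the difference between the effects (0 of 7, against 0.0307% of all genes). Tnni1, higher in KO and lower in R206W mice than in their controls, gave a difference of effects of 0.89 ± 0.259 (SE), with an unadjusted p of 0.00344 and an adjusted p of 1 (limma). Igfn1 gave 0.71 ± 0.260 (SE), with an unadjusted p of 0.0155 and an adjusted p of 1 (limma). At an unadjusted p under 0.05 these were 2 of 7 members and 373 of all genes. Over the alternatives the adjusted p ranged from 0.622 to 1 for Tnni1 and from 0.710 to 1 for Igfn1. The remaining 5 members had differences of effects from -0.30 (Tnnc1) to 0.011 (Myh7).

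The controls of the KO and R206W lines, which had no part in choosing the genes, were of the same age and genotype. Between them 0 of 7 members and 0 of 16265 genes (0% called) passed an adjusted p of 0.05 (limma), and 507 genes had an unadjusted p under 0.05, among them Tnni1 alone of the members. Tnni1 was higher in R206W controls by 0.46 ± 0.183 on the log2 scale (SE, unadjusted p of 0.0238 and adjusted p of 0.784, limma), where the median over all genes was 0.13. Without rescaling, Tnni1 was thus at 0.46 between these wild-type groups and at -0.56 between R206W mice and their controls. In the R206W comparison the median over all genes was 0.0096, so the 2 values do not share a baseline. Rescaling by size factors took the median of all genes between the control groups to -0.0022. Under it Tnnc1, Igfn1 and Acta1 turned from 0.00075, 0.095 and 0.057 to -0.14, -0.044 and -0.072.

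Other genes of the muscle apparatus were read from lists by role. In P209L, 4 of 9 tested thick filament genes were lower and 5 higher, with a median log2 difference of 0.056, against 0.016 over all genes tested. Of 11 tested thin filament genes, 6 were lower and 5 higher (median -0.11). All 6 tested titin and Z-disc genes were lower (median -0.25), as were 9 of 10 genes of muscle energy and calcium handling (median -0.18) and both tested myogenic regulators (median -0.25). The lists include the members, and these counts carry no test.

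The 2 most abundant other genes of each list mostly had smaller differences than Myh7 and Tnnc1. Myl4, with 54.2 TPM on average, was at 76.3 and 78.2 TPM in P209L controls and between 41.8 and 105 TPM in P209L mice, which surrounded the controls (log2 difference -0.31). Mybpc1, which encodes slow myosin-binding protein C, was at 0.30, Tpm1 at 0.12, Tpm3 at 0.043 and Atp2a2 at 0.12. Tcap, which caps titin at the Z-disc, was at -0.26, the Z-disc actin crosslinker gene Actn2 at -0.25, Mef2c at -0.059 and the muscle methyltransferase gene Smyd1 at -0.44. Pygm, the muscle form of glycogen phosphorylase, was lower by more, at -0.66 ± 0.257 (SE), with 11.7 to 17.5 TPM in P209L mice and 20.7 and 24.01 TPM in their controls. Singled out after their values were seen were Cox8b, a muscle form of a cytochrome c oxidase subunit, and Myh7b, a slow myosin heavy chain gene. Cox8b was at -1.06, but its 2 controls were far apart, at 0.99 and 8.00 TPM, and P209L mice held 0.77 to 1.62 TPM. Myh7b was at -0.54, with 1.96 to 3.58 TPM in P209L mice, overlapping controls at 3.25 and 5.04 TPM.

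In the KO, R206W and control comparisons, 0 genes of these 5 lists passed an adjusted p of 0.05. Genes with an unadjusted p under 0.05 (limma) are given with log2 differences in parentheses. In KO mice they were 3 of 10 tested genes of muscle energy and calcium handling, Cox6a2 (0.38), Eno3 (0.27) and Pgam2 (-0.50). They were also 1 of 11 thin filament genes, Tnnt2 (0.37), and 1 of 6 titin and Z-disc genes, Igfn1, where 663 of all 16265 genes were counted. In R206W mice they were 1 of 10 genes of muscle energy and calcium handling, Casq2 (0.40), and 1 of 11 thin filament genes, Tnni1, where 357 of all genes were counted. The thick filament and myogenic regulator lists held 0 in either line. These genes were named after their values were seen.

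**Figure D5:**
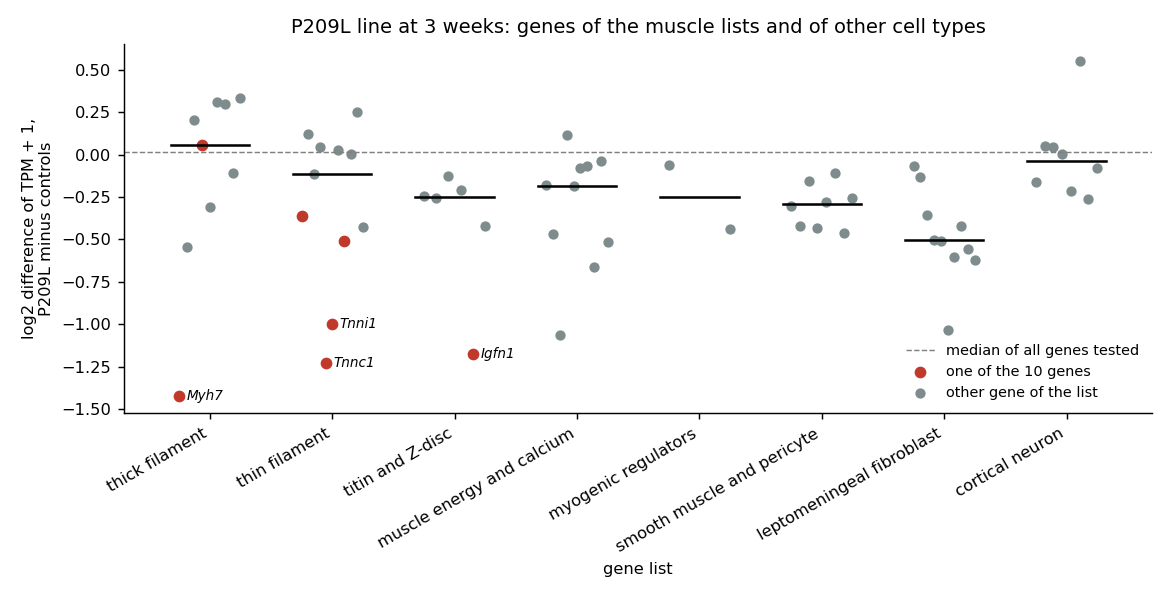
Log2 difference of TPM + 1 between P209L mice and their controls for each tested gene of 5 muscle lists and 3 lists of other cells, with members of the group of 10 in red, list medians as black bars and the median of all tested genes as a dashed line. Myh7, Tnnc1, Igfn1 and Tnni1 lie below the other genes of their own lists, and the lists of smooth muscle and leptomeningeal cells lie below the dashed line as a whole.

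Markers of several other cell types also had lower values in P209L, given as a description. All 10 leptomeningeal fibroblast markers were lower (median -0.51, against 0.016 over all genes tested), and 7 of the 10 had each P209L mouse below both controls, as 10.7% of all genes did, with sums of 49.9 to 74.5 TPM in P209L mice and 88.3 to 101 TPM in controls. All 8 tested smooth muscle and pericyte markers of 10 were lower (median -0.29), with overlapping sums of 58.9 to 78.4 and 73.5 to 89.6 TPM. The 2 markers of this list under the filter went opposite ways. Cnn1 was higher, at 0.50 to 0.78 TPM in P209L mice and 0.32 to 0.41 TPM in controls. Des was lower, at 0.17 to 0.46 TPM in P209L mice and 0.67 to 0.69 TPM in controls. All 5 blood markers were lower (median -0.68), with sums of 1905 to 2837 and 2572 to 4884 TPM. Their part in the lower sarcomere genes was not tested. Choroid plexus markers summed to 1776 TPM in 1 control and to 10.1 TPM in the other, and to 5.39 to 15.4 TPM in P209L mice. The sums over the 10 sarcomere genes were 139 and 143 TPM in the 2 controls, and whether choroid plexus tissue bore on any member was not tested. List medians of markers of neighbouring regions were -0.012 for thalamus, 0.071 for striatum and 0.033 for hippocampus, and that of cortical neuron markers was -0.040. Single markers within the regional lists differed by more and in both directions. Hippocampal Spink8 was at 1.79 and Neurod6 at 0.59, striatal Tac1 at 0.80 and Ppp1r1b at -0.49, and thalamic Tcf7l2 at -0.50, named after their values were seen. Whether the share of these regions differed was not tested. Of skeletal muscle genes, Ckm, Ttn, Myod1 and Myog were at or near 0 in all groups, as given above. Others were not, with means of 8.56 TPM for Acta1, 16.2 TPM for Tcap and 20.6 TPM for Pygm. Whether the samples held any muscle tissue was not tested.

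In the 8-week lines no gene of the leptomeningeal, smooth muscle and pericyte or blood lists passed an adjusted p of 0.05 (limma). Beside the higher Igfn1 values of KO mice, 9 of 10 leptomeningeal markers, 7 of 8 smooth muscle and pericyte markers and 5 of 5 blood markers had positive log2 differences. The list medians were 0.25, 0.41 and 0.36, where the median over all genes tested was itself above 0, at 0.064. Rescaling by size factors moved the median over all genes to -0.0040, and the marker counts were not repeated under it. Beside the lower Tnni1 values of R206W mice, 9 of 10 leptomeningeal markers and 5 of 5 blood markers had negative log2 differences, while 6 of 8 smooth muscle and pericyte markers had positive ones. Here the median over all genes tested was 0.0096. Leptomeningeal sums were 64.4 to 88.0 TPM in KO controls, 79.8 to 124 TPM in KO mice, 74.6 to 96.6 TPM in R206W controls and 57.8 to 89.9 TPM in R206W mice. Smooth muscle and pericyte sums were 111 to 135, 117 to 181, 105 to 134 and 124 to 134 TPM in the same order, and blood sums were 696 to 900, 759 to 1323, 736 to 1252 and 560 to 693 TPM. Their part in these values was not tested. Mitochondrially encoded genes took 20.1% of the TPM of KO control 1 and 10.7 to 15.4% in all other mice. KO control 1 also had the lowest Igfn1 value of the KO controls, 11.8 TPM.

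Whether the members rose and fell together from mouse to mouse was tested on deviations from the group mean, which the choice of genes did not use. None of the 21 pairs of detected members passed an adjusted p of 0.05, by Pearson's r or by Spearman's rho (0 of 21 by each, permutation test within groups with 100000 permutations, two-sided). Pearson's r ran from -0.50 to 0.64 with a median of -0.12, and 10 of the 21 pairs were above 0. An unadjusted p of r under 0.05 was found for 3 pairs: Igfn1 with Acta1 (r = 0.643, permutation p = 0.0399), Tnnt1 with Acta1 (r = 0.597, permutation p = 0.0460) and Tnnc1 with Igfn1 (r = 0.478, permutation p = 0.0420), each with an adjusted p of 0.306. For these pairs rho was 0.576, 0.534 and 0.502 (permutation p of 0.0519, 0.0732 and 0.0823, adjusted p of 0.402 for each), and r without the 2 mice farthest from the median of the first gene was 0.608, 0.579 and 0.558. Myh7 and Tnnc1, the pair with the lowest r, had r = -0.503 (permutation p = 0.0875, adjusted p = 0.306) and rho = -0.598 (permutation p = 0.0261, adjusted p = 0.402), and r was -0.240 without the P209L mice numbered 2 and 3. The value that moved most on leaving out 2 mice was that of Myh7 and Tnni1, with r = -0.128 (permutation p = 0.798, adjusted p = 0.952) and rho = -0.314 (permutation p = 0.335, adjusted p = 0.657) over all mice, and r = -0.777 without the same P209L mice. All values without 2 mice kept the group means of all mice. The deviation of the remaining P209L mouse was therefore still set by the mice left out. For that reason -0.240 and -0.777 are not correlations within groups, and nothing is read from them.

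The genes whose deviations from the group mean were most like those of the 3 selecting genes were different for each (Pearson's r over 17 mice, as a description). For Myh7 they were Etv4 (0.897), Paqr6 (0.892), Tppp3 (0.866), Gm6419 (0.862) and Lrrc17 (0.826). For Tnnc1 they were Olfr464 (0.884), Rint1 (0.867), Prss22 (0.831), Tph2 (0.819) and Bcl10 (0.815). For Igfn1 they were She (0.965), Gm37074 (0.960), Cd93 (0.956), Crhr1 (0.955) and Vwa1 (0.955). None of the 15 was a sarcomere gene of the lists. Without the 2 mice farthest from the median of the selecting gene, r was 0.526 to 0.748 for the genes like Myh7, 0.629 to 0.847 for those like Tnnc1 and 0.926 to 0.948 for those like Igfn1. Here too the group means of all mice were kept. In P209L their own log2 differences lay between -0.44 (Olfr464) and 0.19 (Gm6419), far from those of Myh7, Tnnc1 and Igfn1.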

How the data were processed

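RNA from the cortex of 17 mice was sequenced as stranded total RNA libraries. The authors deposited a table of TPM by gene symbol, in which each column adds up to 1000000 within rounding. The submitters' processing notes name Trim Galore, STAR 2.7.1a, GATK 4.0.4.0, RSEM and mm10. The annotation and the use of strand in quantification are not given in the sources used here. TPM keeps no depth, and each value is a share of its sample, so a few abundant transcripts can shift all others.

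Of 55573 entries, 120 repeated a symbol and were summed. The 16265 genes that averaged 1 TPM or more were fitted as log2(TPM + 1) with a mean per group in limma 3.58.1 (R 4.3.3, eBayes with trend, two-sided), with Benjamini-Hochberg adjustment over all of them and a threshold of 0.05. The fit was tested on simulated data. Each limma p-value sets a difference against the spread between mice within groups. For each gene that spread was pooled over all 6 groups, the P209L groups included, and moderated by eBayes. P209L contrasts and contrasts with P209L controls carry no test. The members and lists were chosen with earlier results of these data known. Named genes were the 10 members, genes of 5 muscle lists that passed the threshold in a tested contrast (0), the 2 most abundant other genes per list, and the 5 genes most like each of Myh7, Tnnc1 and Igfn1. Genes named outside this rule are marked as such. Coordinates were matched by symbol for all 10 members to GENCODE M21 (GRCm38), which may not be the authors' annotation, and promoters for all 10 to RefSeq (GRCm38.p6). Alternatives were a pseudocount of 0.1, no filter or a filter at 5 TPM, size factors, own groups only, a replicate block, removal of mitochondrial genes and leaving out each mouse.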

Additional observations from a re-analysis of the deposited data

How the results depend on the processing

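No alternative changed a call: 0 members passed the adjusted threshold in the KO, R206W, KO against R206W and control comparisons under each setting run, leaving out any mouse included, and 0 of the 21 pairs covaried with a pseudocount of 0.1 or size factors. The mean log2 difference of the 10 members in P209L was -0.57, and -0.66 with a pseudocount of 0.1 and -0.585 to -0.550 with 1 mouse left out. That between 3-week and 8-week controls was 0.31, and 0.44 with a pseudocount of 0.1, 0.40 with size factors and 0.293 to 0.345 with 1 mouse left out.

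Over all alternatives, 31 log2 differences of single members changed sign, and none that was tested was past the threshold. With size factors, Myh7 between the KO and R206W effects became -0.055, and between the control groups Tnnc1 became -0.14, Igfn1 -0.044 and Acta1 -0.072. Between these controls Tnnc1 became -0.00046 with a pseudocount of 0.1 and -0.041 without mitochondrial genes. Leaving out 1 mouse gave ranges that crossed 0 in KO mice for Myh7 (-0.21 to 0.0086) and Acta1 (-0.061 to 0.24), and in R206W mice for Myh7 (-0.14 to 0.013), Tnnc1 (-0.097 to 0.32) and Tnnt1 (-0.075 to 0.013). In P209L this held for Myl2 (-0.17 to 0.29). Between the KO and R206W effects it held for Myh7 (-0.13 to 0.089), Tnnt1 (-0.22 to 0.024) and Myl2 (-0.22 to 0.021). Between the controls it held for Tnnc1 (-0.20 to 0.22), Igfn1 (-0.079 to 0.26), Tnnt1 (-0.17 to 0.045), Myl2 (-0.17 to 0.076) and Acta1 (-0.13 to 0.17), and between 3-week and 8-week controls for Acta1 (-0.071 to 0.11). The cause was not tested.

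Deviations of mice with the same number had r from -0.11 to 0.33 over genes. No value for mice of different numbers was set beside these, so whether the numbers pair the mice was not decided. With a replicate block, 0 members passed in KO and R206W mice, the mean P209L difference was -0.59 and Myl2 in P209L became -0.022. The block could not be fitted between control groups. The filter and own-group settings do not alter the mean differences. Depth is unknown from TPM, and 2 P209L controls limit the precision of every P209L value.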

Other observations

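The cardiac troponin genes, which lie beside slow members on their chromosomes or share their role, were also measured. Tnni3, the cardiac inhibitory subunit, whose gene is separated from Tnnt1 by 1922 bases and lies on the same strand, was at 1.28 and 2.16 TPM in P209L controls and 1.00 to 2.56 TPM in P209L mice, a log2 difference of 0.030, where Tnnt1 was at -0.51. At 8 weeks Tnni3 was at 0.52 to 0.75 TPM in KO controls, 0.95 to 1.35 TPM in KO mice, 0.66 to 0.90 TPM in R206W controls and 0.42 to 0.59 TPM in R206W mice, without overlap in either line (as for 6.25% of all genes in KO and 16.2% in R206W). Tnni3 averaged 1.06 TPM over all mice and 0.899 TPM without the P209L mice, so it passed the filter only through them. The KO and R206W effects on Tnni3 differed by 0.63 ± 0.267 (SE), given as a description without a test. Tnnt2, the cardiac troponin T, was at 8.02 to 8.97 TPM in P209L controls and 6.71 to 9.84 TPM in P209L mice, a log2 difference of 0.0026. In KO mice it was at 11.3 to 12.5 TPM against 6.82 to 10.9 TPM in their controls, with a log2 difference of 0.37, an unadjusted p of 0.0325 and an adjusted p of 0.999 (limma). These genes were chosen after their values were seen.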
